A study of Mus musculus with 2 samples.

Results

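The cells annotated Chondrocyte in the table of cell types deposited by the authors numbered 296 of 5678 annotated cells, and they were taken by that annotation alone. They came from E11.5 mouse embryos that carried a DNA barcode-linked EGFP transgene, which the CAG promoter drove and the piggyBac transposon had inserted. Suspensions F0_8 and F0_9 were each a founder embryo that developed from a manipulated zygote, F1_1 was an embryo of the F1 generation, and F1_mix was an artificial mosaic of cells from 2 F1 embryos. All 4 suspensions carried the transgene, were tagged with multiplexing oligos and ran in 1 gene expression library, so no embryo was prepared again and no embryo without the transgene was compared. Values for the suspensions are given in the order F0_8, F0_9, F1_1, F1_mix wherever no other order is named. The type held 88, 82, 56 and 70 cells. These were 5.50% (exact 95% interval 4.44 to 6.74), 6.22% (4.98 to 7.66), 4.27% (3.25 to 5.52) and 4.82% (3.78 to 6.06) of the annotated cells of each suspension, with overlapping intervals. The embryos were of mixed sex, as Y-linked genes summed to 0 in F0_9 and F1_1 and not in the other suspensions. The intervals cover counting error only.

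Chondrocytes are the cells that lay down cartilage. They arise where mesenchymal cells condense, under the transcription factor Sox9, which acts together with Sox5 and Sox6 on the genes of cartilage matrix such as the collagens Col2a1, Col9a1 and Col11a1 and the proteoglycan aggrecan (Acan). In the mouse embryo these condensations are beginning at the stage sampled here, and later the cartilage is largely replaced by bone. Levels below are UMIs (unique molecules counted by their tags) of a gene, summed over the cells of a type, per 10000 UMIs of all genes. The comparison types were the 3 other mesenchymal annotations, namely Mesodermal Progenitor (496 cells), Gut Mesenchyme/Amniotic Mesoderm (674 cells) and Myoblast/Cardiomyocyte (644 cells). Since the types had been clustered on the same genes, differences between types are given as descriptions with no test.

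The 4 markers of the label did not set these cells apart from the other mesenchymal types. The Sox9 level was 3.08, 2.59, 1.32 and 2.34 across the suspensions, and 2.37 over all suspensions (exact Poisson 95% interval 2.22 to 2.54). The level over all suspensions was 3.27 in Gut Mesenchyme/Amniotic Mesoderm (3.15 to 3.39) and 2.19 in Mesodermal Progenitor (2.10 to 2.28), so that the type named for cartilage lay between them, with an interval that overlapped the latter. Col2a1, the main collagen of cartilage, stood at 3.57, 3.52, 1.68 and 2.15 in F0_8, F0_9, F1_1 and F1_mix. Over all suspensions its level was 2.78 (2.61 to 2.96), against 3.27 in Gut Mesenchyme/Amniotic Mesoderm and 2.24 in Mesodermal Progenitor. The Col9a1 level was 1.67 (1.54 to 1.81) beside 1.90 in Gut Mesenchyme/Amniotic Mesoderm (1.81 to 1.99). Within the suspensions Col9a1 stood at 1.66, 2.11, 1.52 and 1.36 in the Chondrocyte type and at 2.36, 2.11, 1.48 and 1.22 in Gut Mesenchyme/Amniotic Mesoderm, so that F0_8 was the suspension with a clear deficit. Sox9 in F1_mix was also level between these types (2.34 and 2.32), while Col2a1 was lower in each suspension. Sox5 was at 2.03 (1.88 to 2.18), below Gut Mesenchyme/Amniotic Mesoderm at 4.88 and Mesodermal Progenitor at 3.27, and it ranked the sixth among the 12 types of ordinary depth. In that order its interval overlapped those of Epithelial Cell (2.36), Neuronal Progenitor (2.24), Neuroectoderm/Glia (2.0) and CNS Neuron (1.87). For Sox9, Col2a1 and Col9a1 the Chondrocyte type held rank 2 of the 12 types, above Mesodermal Progenitor and Myoblast/Cardiomyocyte over all suspensions. The markers were thus present but did not single out the annotated cells, which are described here by their annotation and their leading genes.

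**Figure D1:**
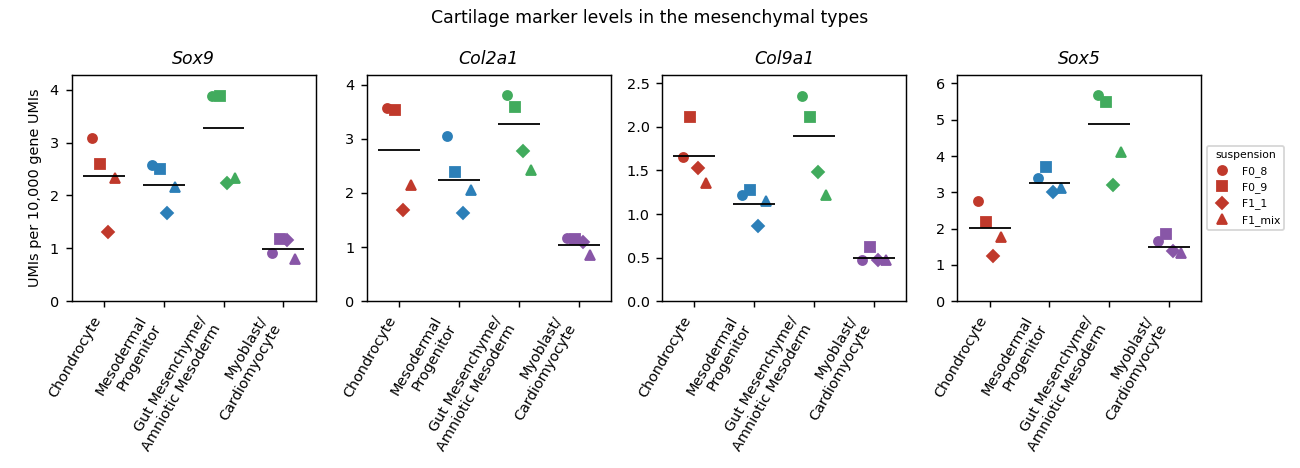
Level of each of the 4 cartilage markers (vertical axis, UMIs per 10000 gene UMIs) in the 4 mesenchymal types, with 1 point per suspension (shape) and a line at the level over all suspensions. Gut Mesenchyme/Amniotic Mesoderm had the highest line in each panel, and the Chondrocyte line lay at 2.37 for Sox9, 2.78 for Col2a1, 1.67 for Col9a1 and 2.03 for Sox5.

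The markers were nonetheless present in a part of the cells. After each cell was thinned to 5000 gene UMIs, which 294 of the 296 cells allowed, Sox9 was detected in 39.8% of cells (117 cells), Col2a1 in 43.5% (128), Col9a1 in 37.4% (110) and Sox5 in 43.2% (127). Erythroblasts, which should lack these genes, gave 0.704%, 1.41%, 0.704% and 4.23% of 142 thinned cells. Without thinning the shares were 56.4%, 59.1%, 54.1% and 58.1% in the Chondrocyte type (median depth 11653.5 gene UMIs) and 7.64%, 6.94%, 2.08% and 13.2% in erythroblasts (median depth 29076). Among the thinned cells, 73 had no UMI of the 4 markers (24.8%) and 39 had all 4 (13.3%). Cells with all 4 markers were 15 of 86, 13 of 82, 3 of 56 and 8 of 70 across the suspensions.

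The wider cartilage lists were examined in the same way. A gene was counted as higher where its Chondrocyte level was at least 2 times that of each other mesenchymal type in every suspension, and as lower where it was at most 0.5 times each of them. Of 12816 genes with 40 or more UMIs, 33 were higher (0.257%) and 27 were lower (0.211%). The 40 UMIs could come from any of the 4 types, and 23 of the lower genes had fewer than 40 in the Chondrocyte type, 8 of them 0, so the lower count is a description of low levels only. Over all suspensions pooled, 27.2% of these genes lay above each other type and 29.5% below each. None of the 16 cartilage matrix genes with enough UMIs, of 18 listed, was on either side, and the median log2 ratio to the pooled other types was 0.47, against -0.03 over all genes. Hapln1, which links proteoglycans to hyaluronan, was among the 3 that exceeded each other type over all suspensions, at 0.376 against 0.181 or less. Its level was 0.117, 0.50, 0.448 and 0.460 across the suspensions, so that the first founder stood apart. Epyc and Cnmd, a small proteoglycan of young cartilage and the inhibitor of vessel growth chondromodulin, were the others. Acan had 16 UMIs in all 296 cells.

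Among the regulators of cartilage formation, none of 14 genes with enough UMIs passed the 2-fold rule. Of the 14, 5 lay below each other type over all suspensions and 2 above each, where 29.5% and 27.2% of all genes did. The median log2 ratio was -0.46. Sox6, the partner of Sox5, was at 0.860 against 1.66 in Mesodermal Progenitor and 3.37 in Gut Mesenchyme/Amniotic Mesoderm. Runx2, the factor needed for bone formation, was at 0.276 against 0.888 and 1.23 in the same types. Foxc1 and Foxc2, forkhead factors of paraxial mesoderm and its skeletal derivatives, were the ones above each other type, with Foxc1 at 1.21 against 0.713 or less and Foxc2 at 0.689 against 0.310 or less.

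Genes of late cartilage and bone had low levels throughout. The 12 listed genes summed to 1.22, against 1.01 in Mesodermal Progenitor, 1.04 in Gut Mesenchyme/Amniotic Mesoderm and 0.787 in Myoblast/Cardiomyocyte, with the Chondrocyte sum the highest of these in each suspension. Most of that sum was Pth1r, the receptor for parathyroid hormone and its related protein, at 0.954 against 0.860 or less, and Spp1, the matrix protein osteopontin, at 0.185 against 0.0718 or less. Col10a1, the collagen of hypertrophic cartilage, and Ibsp, a bone matrix protein, each had 1 UMI. Ihh, Mmp13, Bglap and Dmp1, which mark hypertrophic cartilage or bone, had 0 UMIs, which allows a level of up to 0.00854. Genes of mesenchymal condensation summed to 21.8, beside 21.0 in Mesodermal Progenitor, 27.4 in Gut Mesenchyme/Amniotic Mesoderm and 12.6 in Myoblast/Cardiomyocyte. Their median log2 ratio was 0.16 over 13 genes, with Cdh11, an adhesion molecule of mesenchyme, at 5.75 against 6.24 in Gut Mesenchyme/Amniotic Mesoderm and 5.53 in Mesodermal Progenitor.

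The 15 leading genes included 3 Zic factors and the connective tissue genes Col1a1 and Lum. The gene with the clearest margin was Vtn, which encodes the adhesive matrix and plasma protein vitronectin. Its level was 1.08, 1.77, 1.87 and 1.20 across the suspensions, against 0.0417 over all suspensions in the highest other mesenchymal type, a ratio of 35.1. Outside the mesenchyme, Ependymal Cell reached a level of 1.5. Pltp, a phospholipid transfer protein, was at 0.837 against 0.0928 (9.02 times), and Tagln, an actin-binding protein of smooth muscle, at 1.98 against 0.285 (6.94 times). Tagln varied most among the leading genes, with 0.701, 2.55, 3.10 and 1.74 across the suspensions. All 15 leading genes lay above the highest other mesenchymal type in each suspension, as the rule that chose them requires.

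In the list of tendon and connective tissue genes, 2 of 20 were higher by the 2-fold rule, namely Col1a1 and Lum, beside 0.257% of all genes. Over all suspensions 15 exceeded each other type, where 27.2% of all genes did (median log2 ratio 0.82). Col1a1, a chain of type I collagen, was at 6.92, 8.54, 5.25 and 5.61 in F0_8, F0_9, F1_1 and F1_mix, and at 2.61 in the highest other type over all suspensions (2.55 times). Lum, a proteoglycan that organises collagen fibrils, was at 2.64, 2.42, 2.46 and 2.02, which was 3.69 times the highest other type. Col3a1, the collagen of loose connective tissue, was at 10.8 against 5.36, and it met the ratio over all suspensions but not in each. Other leading genes were Sparc, a collagen-binding protein (8.83 against 3.86), Cthrc1, a secreted protein of matrix-producing cells (3.46 against 1.10), Bgn, the proteoglycan biglycan (1.46 against 0.498), and Aebp1, a collagen-binding protein (0.863 against 0.243). The tendon factor Scx was at 0.809, below the 1.13 of Gut Mesenchyme/Amniotic Mesoderm.

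The proteins that fold, modify and secrete collagen followed. In a list put together after the leading genes had been seen, 17 of 20 such genes exceeded each other mesenchymal type over all suspensions, where 27.2% of all genes did, and none lay below each of them. Serpinh1, the collagen chaperone, was at 10.9, 12.7, 12.7 and 12.4 in F0_8, F0_9, F1_1 and F1_mix, and at 6.90 or less in the other types. The summed level of the list was 43.0 in the Chondrocyte type, 26.2 in Gut Mesenchyme/Amniotic Mesoderm, 20.3 in Myoblast/Cardiomyocyte and 20.2 in Mesodermal Progenitor. For basement membrane genes, chosen in the same way, 11 of 13 exceeded each other type, beside the same 27.2%. Col4a1, a chain of type IV collagen, was at 2.64 against 0.998, but 567 of its UMIs lay in 36 cells that held Vtn after thinning. In the other 258 cells, with 358 UMIs, its level was 1.16. These UMIs and levels are those before thinning. Both lists were chosen after values had been seen and give no independent evidence of their direction.

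The Zic genes are transcription factors of dorsal neural tube, somites and the mesenchyme around the brain. Zic1 was at 1.63, 1.52, 2.16 and 2.44 in F0_8, F0_9, F1_1 and F1_mix, 3.89 times the highest other mesenchymal type over all suspensions. Zic2 (0.843, 3.06 times) and Zic4 (0.789, 4.42 times) also passed the 2-fold rule, while Zic5 was at 0.219. Foxd1, a forkhead factor of stromal progenitors, was at 2.38 against 1.33. The remaining named genes were S100a6, a calcium-binding protein (0.922 against 0.230), Akap12, a scaffold for protein kinases (3.05 against 0.901), and Prdm6, a regulator of smooth muscle (1.14 against 0.389). Of 10 mural cell genes with enough UMIs, in a list also chosen afterwards, 6 exceeded each other type and 1 lay below each, where 27.2% and 29.5% of all genes did, and Tagln and Vtn passed the 2-fold rule. The list summed to 4.28, 7.22, 10.2 and 5.44 across the suspensions, and to 6.65 over all, against 1.69 in Mesodermal Progenitor, 1.95 in Gut Mesenchyme/Amniotic Mesoderm and 3.14 in Myoblast/Cardiomyocyte, which was higher in F0_8 (7.68). Rgs5, a marker of pericytes, stood at 0.683 against 0.153, while smooth muscle Acta2 was higher in Myoblast/Cardiomyocyte (1.81) than in the Chondrocyte type (1.03), and Cspg4, Abcc9 and Myh11 had 22, 9 and 9 UMIs.

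**Figure D2:**
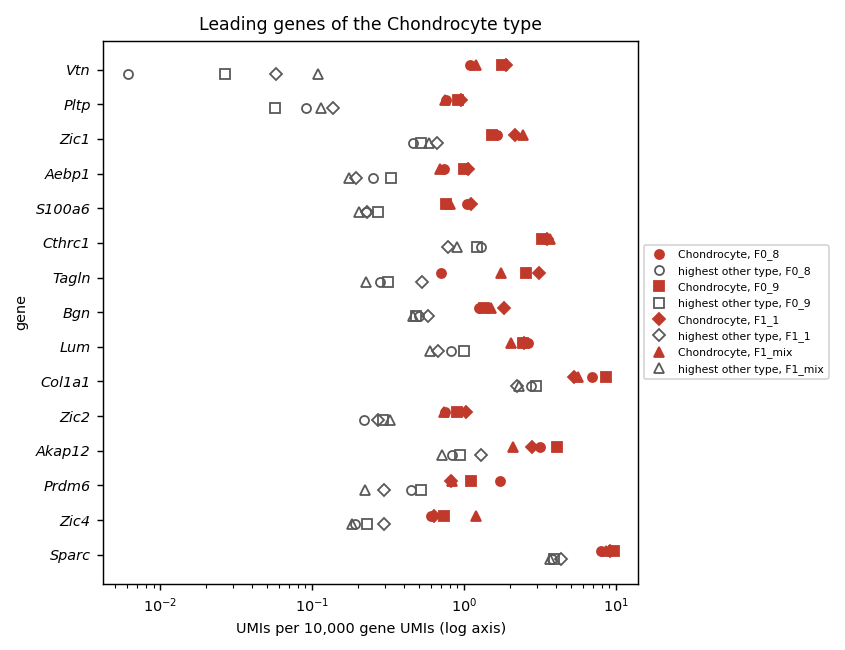
Levels (horizontal axis, log scale, UMIs per 10000 gene UMIs) of the 15 leading genes in the Chondrocyte type (filled) and in the highest of the other 3 mesenchymal types (open), with 1 point per suspension. The filled points lie to the right of the open ones of the same suspension for each gene, with the widest gap for Vtn and the closest for Sparc.

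Of the 27 lower genes, the lists held Lhx9 (limb), Lhx8 (craniofacial), Hoxc11 (Hox) and the muscle progenitor factors Pax3 and Pax7 (myogenic). None was in the cell cycle list of 24 genes. Outside the lists, the lower genes included the histone genes H2bc18, H2bc15 and H2bc8, and Orc1, Brip1, Recql4 and Rad51b, genes of DNA replication and repair. H2bc18 was at 0.0199 against 0.0640 or more, and H2bc15, H2bc8 and Recql4 had 0 Chondrocyte UMIs. Pax3 was at 0.0569 against 0.402 or more. Of 21 limb mesenchyme genes, 13 lay below each other type over all suspensions, where 29.5% of all genes did, and 1 above (median log2 ratio -0.67). Lhx9, a factor of the distal limb, passed the 2-fold rule at 0.0541, against 0.318 or more. Hoxd13, the most 5′ gene of its cluster, was at 0.0484 against 0.221 or more, and Prrx1, which marks limb and head mesenchyme broadly, was at 3.43 against 5.26 in Mesodermal Progenitor and 3.05 in Myoblast/Cardiomyocyte. The exception was Msx2, a homeobox factor of limb and skull mesenchyme, at 0.780 against 0.340 or less. Of 16 craniofacial genes, 13 lay below each other type, beside the same 29.5%, and 2 above, with Lhx8 at 0.0142 and Six2 at 0.521 against 0.458 or less.

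Of the 10 genes with the widest margin below, Rad51b, Eya4 and Prdm16 passed the 2-fold rule, and the other 7 lay below each other type in every suspension by less. Among the 10 were Eya1 and Eya4, transcriptional coactivators, with Eya4 at 0.786, 0.891, 0.397 and 0.529 in F0_8, F0_9, F1_1 and F1_mix and at 1.5 or more in the other types over all suspensions. Dach1, which acts in the same network, was at 0.814 against 2.25 or more. Prdm16, a chromatin regulator of cell fate, was at 0.276 against 0.751 or more. Wnt5a, the ligand that drives outgrowth of limb and face, was at 0.510 against 0.885 or more, and Sox11, a factor of progenitor cells, was at 3.13 against 5.85 or more. The other 4 were Rad51b and Dtl, genes of DNA repair and replication control, the amino acid transporter Slc38a1 and C530008M17Rik.

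Several cell cycle genes had low levels. Mki67, a protein of cycling cells, was at 0.234, 0.152, 0.384 and 0.322 in F0_8, F0_9, F1_1 and F1_mix, against 4.29 in Mesodermal Progenitor and 1.08 in Myoblast/Cardiomyocyte. Its level in Gut Mesenchyme/Amniotic Mesoderm was 0.292, close to the 0.268 of the Chondrocyte type. Top2a, which untangles replicated DNA, was at 0.194 against 8.09 in Mesodermal Progenitor. Of 24 cell cycle genes 11 lay below each other type, beside 29.5% of all genes, and the exception above them was Cdkn1c, an inhibitor of the cell cycle, at 18.5 against 16.3 or less.

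Markers of other tissues had low levels, some of them above those of the other mesenchymal types. The 8 endothelial genes summed to 0.404, against 0.167 in Mesodermal Progenitor, 0.253 in Gut Mesenchyme/Amniotic Mesoderm and 0.160 in Myoblast/Cardiomyocyte, with 4 of 6 genes with enough UMIs above each of these, where 27.2% of all genes were. Pecam1 had 3 UMIs and Tie1 had 0, and the part of such cells or RNA in the results was not tested. In the same order of types the 8 epithelial genes summed to 0.569 against 0.212, 0.505 and 0.244, and the 8 cardiac genes to 0.464 against 0.152, 0.316 and 0.989. The 7 macrophage genes summed to 0.0285. The 10 myogenic genes summed to 0.384 against 6.23 in Myoblast/Cardiomyocyte. For the 9 erythroid genes the sum was 1.30, beside 1.29 in Mesodermal Progenitor and 1.38 in Gut Mesenchyme/Amniotic Mesoderm. In Myoblast/Cardiomyocyte it was 14.2, with 77.5 in F0_9. The 8 neuronal genes summed to 0.996 and the 6 neural crest and glia genes to 0.188. Of the 8 neural progenitor genes, Vim made up 11.4 of a sum of 12.3, and Sox2, Pax6 and Sox1 had 5, 1 and 1 UMIs. Immediate early and stress genes summed to 26.7, against 23.1 to 24.1 in the other types, with Jun at 4.64 against 4.03 or less. The share of UMIs from genes over 100 kb, outside mitochondrial genes, was 12.1% in the Chondrocyte type, 14.9% in Mesodermal Progenitor, 17.8% in Gut Mesenchyme/Amniotic Mesoderm and 10.1% in Myoblast/Cardiomyocyte. The part of this share in the differences between types was not tested.

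The 296 cells were not uniform. Genes that mark the split were picked after their values had been seen, and what follows describes these cells without a test. Here and in later splits by a gene, cells were divided on thinned counts, while levels and UMIs are those before thinning. Some cells counted as without a gene therefore held it before thinning. Without thinning, 175 of 296 cells had a Col2a1 UMI. Of the 294 thinned cells, 128 had a Col2a1 UMI and 75 of these also had a Sox9 UMI, where the product of both shares would give 50.9. Cells with Col2a1 had Sox9 at 4.16 (interval 3.84 to 4.51) against 1.10 in the 166 cells without, Col9a1 at 3.02 against 0.710, Sox5 at 3.32 against 1.12 and Matn4, a cartilage matrilin, at 0.561 against 0.0196. The median depth was 10997 with and 12001.5 without. So the cartilage genes were carried together by some of the cells, and all 16 Acan UMIs fell in cells with Col2a1.

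Vtn was found mostly in cells without Col2a1. A Vtn UMI was found in 36 thinned cells (12.2%, and in 0 of 142 erythroblasts, which allows a share of up to 2.11%), with 4 of 86, 8 of 82, 12 of 56 and 12 of 70 across the suspensions. Without thinning, 43 of 296 cells had one. Of the 36 cells, 31 also had a Zic1 UMI and 28 a Lum UMI, where the products of shares give 12.9 and 13, and 9 had a Col2a1 UMI, where the product gives 15.7. Their level of Col4a1 was 13.2 against 1.16 in the other 258 cells (11.4 times), of Col3a1 27.1 against 8.50, of Lum 8.07 against 1.61 and of Zic1 5.37 against 1.44. Their Sox9 level was 1.42 against 2.51, but Col9a1 (1.54 against 1.69) and Sox5 (1.89 against 2.05) were near those of the other cells, and Col11a1 was at 2.73 against 1.90. The levels of Tagln (1.82 against 1.999) and Rgs5 (0.677 against 0.686) were also near those of the other cells. Acta2 was lower (0.420 against 1.11), while Pdgfrb was higher (1.31 against 0.539). Of the 36 cells, 18 had a Col9a1 UMI and 19 a Sox5 UMI, where the products of shares give 13.5 and 15.6. The lead of Vtn over the other mesenchymal types thus came from a minority of the cells.

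A further group held Tcf21, a factor of mesenchyme around visceral organs and the heart, in 27 thinned cells (9.18%). They had Gata6, a factor of heart and gut mesenchyme, at 2.71 against 0.407 in the other 267 cells, Gata4 at 0.885 against 0.105, and Rgs5 at 2.13 against 0.518. Col2a1 was at 0.443 against 3.06, and 2 of the 27 cells had a Col2a1 UMI where the product of shares gives 11.8. No Vtn UMI was found among them, which allows a level of up to 0.0830. The cells with Tcf21 were 7 of 86, 8 of 82, 5 of 56 and 7 of 70 across the suspensions. A small group of 14 cells held Hmx1, a homeobox factor of craniofacial tissue, with Twist1 at 12.3 against 4.50 and Prrx1 at 9.32 against 3.13 in the other 280 cells.

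**Figure D3:**
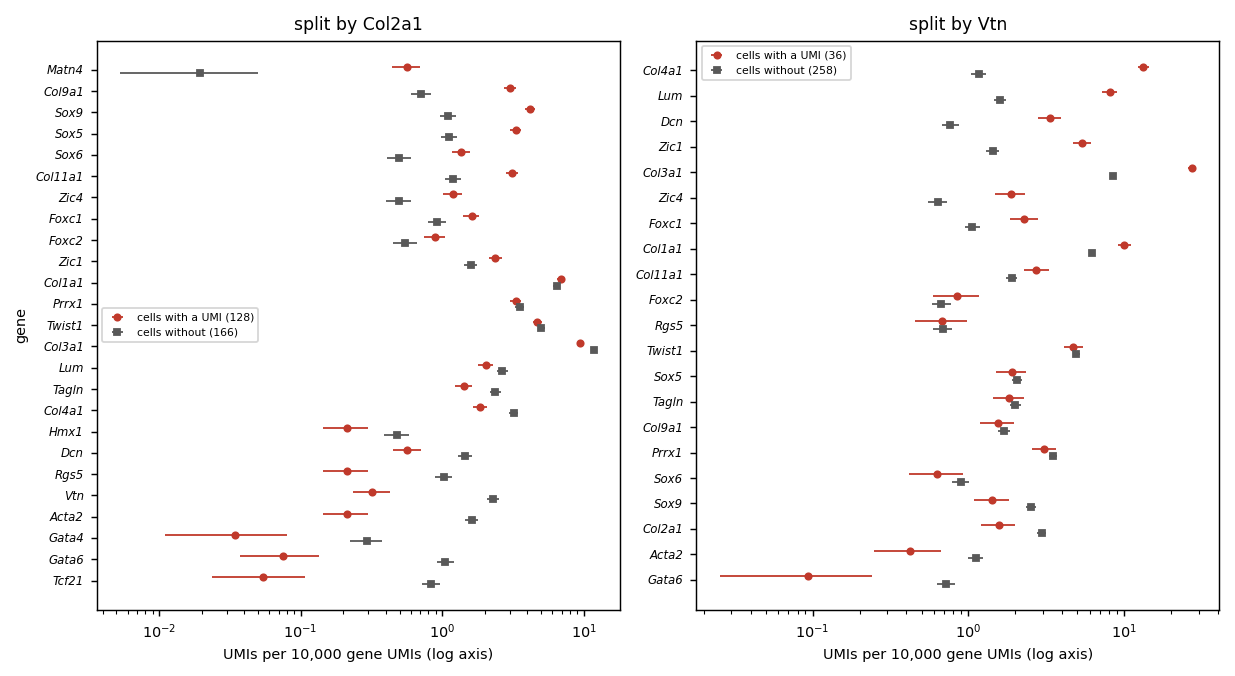
Levels (horizontal axis, log scale, UMIs per 10000 gene UMIs, with exact Poisson 95% intervals) of genes described in the report in Chondrocyte cells with and without a UMI of Col2a1 (left, 128 and 166 cells) and of Vtn (right, 36 and 258 cells), for genes with more than 3 UMIs on both sides. The cells were split on thinned counts, and the levels use the counts before thinning. Cells with Col2a1 were high in Sox9, Col9a1 and Matn4 and low in Tcf21 and Gata6, while cells with Vtn were high in Col4a1, Lum, Dcn and Col3a1.

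The founders and the F1 suspensions were compared on UMIs summed over the Chondrocyte cells of each suspension. With 2 suspensions against 2, embryo, stage, litter and generation cannot be told apart, nor can more RNA of a gene per cell be told from more cells that carry it. Of 9106 genes tested with the edgeR quasi-likelihood test, 106 passed an adjusted p of 0.05 (1.16%), 73 of them higher in founders (0.802%) and 33 lower (0.362%).

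Cartilage matrix genes were among those that were higher in founders. Of 12 tested, 6 rose (beside 0.802% of all genes) and none fell, with a median log2 difference of 1.34 beside -0.00 over all genes. Col2a1 (levels above) had a log2 difference of 0.87 (SE 0.13, adjusted p = 0.00539). The 4 levels of Col9a3, a chain of type IX collagen, were 1.30, 0.859, 0.0768 and 0.265 across the suspensions, a log2 difference of 2.60 (SE 0.35, adjusted p = 0.00419). Col9a2 stood at 0.934, 0.717, 0.128 and 0.426 and Col11a1 at 2.66, 2.22, 1.28 and 1.68. Epyc had 28 and 21 UMIs in the founders and 0 and 1 in F1_1 and F1_mix, and Fibin, a secreted protein of the limb and body wall, was at 1.63, 1.37, 0.192 and 0.748. In the same cells other measures moved with the generation without overlap. The cardiac genes summed to 0.287, 0.380, 0.614 and 0.610, the epithelial genes to 0.244, 0.402, 0.960 and 0.748, the neural progenitor genes, mostly Vim, to 10.1, 10.5, 16.1 and 13, and the thinned cells with a Vtn UMI, of which 9 of 36 had one of Col2a1, were 4.65%, 9.76%, 21.4% and 17.1%. Their part in the cartilage difference was not tested.

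The result depended on which suspension was kept. Without F0_8, 2 of the 12 cartilage genes were called higher, and without F1_mix 9 were, while leaving out F0_9 gave 7 higher and 1 lower. Without F1_1 the number was 5. With DESeq2, 2 were called, with the cells under 5% mitochondrial UMIs 3 of 12, with thinned cells 3 of 9, and without a low-count filter 0 of 18, where no gene of any kind passed (979 had an unadjusted p under 0.05 in edgeR). The median log2 difference stayed between 0.90 and 2.10 in each of these fits. When the cell with most UMIs of each gene was left out of every suspension, an alternative added after the data had been seen, 6 of 12 were called.

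The other mesenchymal types also had higher cartilage sums in the founders. The summed level of the 18 cartilage genes was 14.4, 13.2, 5.90 and 8.10 across the suspensions. In Gut Mesenchyme/Amniotic Mesoderm the same sum was 16.7, 14.4, 9.37 and 8.45, and in Mesodermal Progenitor 10.6, 8.72, 5.14 and 6.70, and in Myoblast/Cardiomyocyte 3.77, 3.78, 3.06 and 2.70. In all 4 types both founders lay above both F1 suspensions, and the types share their suspensions. None of the 15 cartilage genes in the test of the difference between these generation contrasts was called, where 10 of 12188 genes were (0.082%). With so few calls over all genes, that count does not tell whether the contrasts differ.

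In the other skeletal lists, 2 of 12 chondrogenic regulators (Trps1 and Pax1) were called higher in founders, beside 0.802% of all genes, with a median log2 difference of 0.73 and sums of 14.7, 15.7, 9.77 and 10.7. Pax1 was also the 1 gene called among 8 of the sclerotome. None was called of 9 condensation genes, 9 perichondrium and osteoprogenitor genes, 20 collagen processing genes or 12 basement membrane genes (936 of all 9106 genes had an unadjusted p under 0.05 in edgeR). Among single genes that rose, Mgp, an inhibitor of calcification in cartilage and vessels, was at 0.743, 0.794, 0.179 and 0.173 in F0_8, F0_9, F1_1 and F1_mix, with a log2 difference of 2.11 (SE 0.25, adjusted p = 0.00124). Sfrp2, a secreted Wnt antagonist, was at 3.06, 3.03, 1.72 and 1.20, and Cxcl14, a chemokine, at 0.701, 0.554, 0.0896 and 0.161. Pax1, the factor of the sclerotome that gives rise to vertebral cartilage, rose by 2.42 on the log2 scale with 33, 29, 7 and 3 UMIs. Its call was kept in 6 of 9 alternative fits that gave an adjusted p. Trps1, a regulator of chondrocyte maturation, rose by 0.90. Of 20 tendon and connective tissue genes 3 rose (beside 0.802% of all genes), namely Col1a1 by 0.50, Dcn by 1.31 and Osr1 by 1.33. That count was 0 without F0_9, 0 with the cells under 5% mitochondrial UMIs, 1 with DESeq2 and with thinned cells, 2 without F0_8 and 6 without F1_mix, and without F1_1 it was 3 with 2 lower. Hoxd10 alone was called among 23 Hox genes tested, beside 0.802% of all genes, with 25, 17, 2 and 2 UMIs. A single F0_8 cell held 13 of the 25, and the call was kept in 6 of 8 alternative fits that gave an adjusted p.

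**Figure D4:**
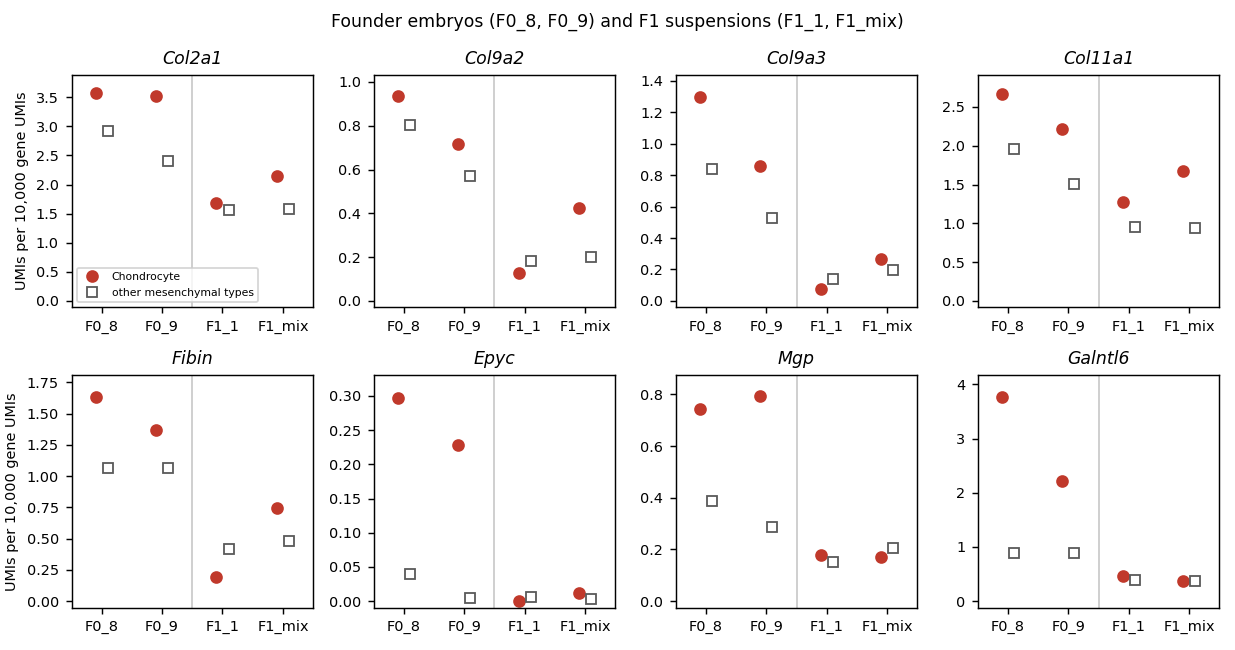
Levels (vertical axis, UMIs per 10000 gene UMIs) of 8 genes called higher in founders, in the Chondrocyte cells (filled circles) and in the other 3 mesenchymal types summed (open squares) of each suspension, with the founders left and the F1 suspensions right of the line. For Col2a1, Col9a2, Col9a3, Col11a1, Fibin, Epyc, Mgp and Galntl6 both founder circles lie above both F1 circles.

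The smallest adjusted p-values belonged to Csmd3, Kcnd2 and Galntl6, which a minority of the cells carried. Csmd3, a large membrane protein, had 72 and 74 UMIs in the founders and 0 and 2 in F1_1 and F1_mix (adjusted p = 5.80e-05). Galntl6, a glycosyltransferase gene, had 355, 204, 37 and 33 UMIs in F0_8, F0_9, F1_1 and F1_mix (log2 difference 2.81, SE 0.25). Kcnd2, a subunit of the Kv4 potassium channel, had 237, 157, 25 and 29 (log2 difference 2.68, SE 0.23). A single cell of F0_9 held 76.5% of the Galntl6 UMIs of that suspension, and a single cell held 74.3% of its Csmd3 UMIs. The 19 cells with 5 or more Galntl6 UMIs (10, 3, 2 and 4 across the suspensions) held 80.4% of all Csmd3 and 55.4% of all Kcnd2 UMIs of the type. Without the highest cell of each suspension the log2 difference was 5.63 for Csmd3, 2.43 for Galntl6 and 2.78 for Kcnd2, and these genes passed the threshold in that fit too.

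Among the 28 cells with a Galntl6 UMI after thinning, Prrx1 was at 6.05 against 3.16 in the other 266, and Twist1, a factor of mesenchyme, at 6.94 against 4.67. Erythroblasts had a Galntl6 UMI in 2.82% of 142 thinned cells, against 9.52% of the Chondrocyte cells. Without thinning the shares were 5.56% and 13.5%.

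Of the 73 genes higher in founders 48 were over 100 kb (65.8%), and of the 33 lower genes 2 were (6.06%), where 17.3% of the tested genes with a length were. The share of UMIs from such genes was 12.8%, 12.7%, 11.4% and 11.3% across the suspensions, and the median depth of the cells was 10025.5, 11171.5, 13961 and 12556 gene UMIs. Both moved with the generation, and their part in the calls was not tested. With all cells thinned to 5000 UMIs, 17 of 6323 genes were called. Lsamp, Prr16 and Kcnq5 completed the 10 named genes that rose, with log2 differences of 1.34, 1.77 and 1.18. Lsamp is a neural adhesion molecule and Kcnq5 a potassium channel.

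Among the 33 genes that fell in founders was Hmgb2, a chromatin protein of proliferating cells, at 3.48, 3.36, 5.82 and 5.05 in F0_8, F0_9, F1_1 and F1_mix, a log2 difference of -0.68 (SE 0.10, adjusted p = 0.00729). Ccna2 and Birc5, which act in S phase and mitosis, were called lower among 20 cell cycle genes, beside 0.362% of all genes. Their differences were -1.51 and -0.75, while the inhibitor Cdkn1c rose by 0.49. No cell cycle gene was called lower with DESeq2, without F0_9 or with thinned cells, 1 was without F0_8 and with the cells under 5% mitochondrial UMIs, and 3 were without F1_mix. The histone variant H2az1 fell by 0.38, and the tubulins Tuba1a and Tubb4b fell by 0.61 and 0.71. Gapdh and Pkm, enzymes of glycolysis, fell by 0.39 and 0.49. In the other mesenchymal types summed, each gene of this paragraph moved in the same direction without overlap of the generations. Hmgb2 was at 10.9, 11.8, 14.0 and 14.0 there, and Gapdh at 14.2, 15.5, 21.3 and 18.9. None of these genes was called in the test of the difference between the contrasts, where 0.082% of all genes were.

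Bambi, a decoy receptor for TGF-beta signals, was at 0.541, 0.435, 1.54 and 1.09, and Ckb, brain creatine kinase, at 0.510, 0.761, 1.87 and 1.43. Colec12, a scavenger receptor, fell by 0.86 (SE 0.12, adjusted p = 0.00477), with levels of 2.14, 2.49, 4.54 and 3.80. In the other mesenchymal types summed, Bambi was at 0.395, 0.528, 0.598 and 0.538, and Colec12 at 1.01, 0.860, 0.985 and 0.971. Kcnip4, a partner of Kv4 channels, had 9, 8, 31 and 28 UMIs, of which a single cell held 26 in F1_1 and another held 27 in F1_mix. Cells with a Kcnip4 UMI numbered 6, 6, 5 and 2, and the gene was not tested between generations in the fit without each gene's highest cell. Krt8, an epithelial keratin, had 3, 16, 38 and 37 UMIs, and the epithelial list summed to 0.244, 0.402, 0.960 and 0.748 in F0_8, F0_9, F1_1 and F1_mix. Lhx2 and Hand1, homeobox and bHLH factors of the limb and the lateral mesoderm, were called lower in founders on 1 and 6 against 18 and 19 UMIs and on 1 and 2 against 9 and 20. A single F1_mix cell held 17 of the 19 Lhx2 UMIs. Without F0_8 neither gene passed the threshold, and neither was tested in the fit without each gene's highest cell. Krt8 did not pass in that fit, nor without F0_8.

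The generation difference of the Chondrocyte cells was set against that of the other mesenchymal types in 1 fit, with each suspension as a block. Of 12188 genes, 10 were called (0.082%), with 4 more positive in the Chondrocyte type and 6 more negative. Kcnd2 differed by 1.83 (SE 0.20, adjusted p = 0.000143), since its level in the other types was 1.70, 1.17, 0.749 and 0.80 in F0_8, F0_9, F1_1 and F1_mix, a smaller contrast. Alcam, an adhesion molecule, was at 5.22, 5.54, 6.59 and 5.41 in the Chondrocyte type, where the generations overlapped, and at 1.93, 2.31, 1.35 and 1.24 in the other types. Ckb differed by -1.34, as the other types held 0.738, 0.740, 0.701 and 0.784. The residual degrees of freedom of this fit were few, and DESeq2 called 3 genes.

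EGFP was left out of the clustering by the authors, so its level was free of the annotation. In F0_8 the level was 14.2 in the Chondrocyte type and 11.6 in the other mesenchymal types summed. For the founder F0_9 the pair was 12.6 and 9.80, for F1_1 it was 33.7 and 24.2, and for F1_mix 12.4 and 9.72. The Chondrocyte level was above each of the 3 other types in 4 of 4 suspensions. The mean log2 ratio was 0.37 ± 0.08 (SD, n = 4 suspensions), a ratio of 1.29, and the exact two-sided sign-flip permutation test gave p = 0.125, the smallest that 4 suspensions allow.

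**Figure D5:**
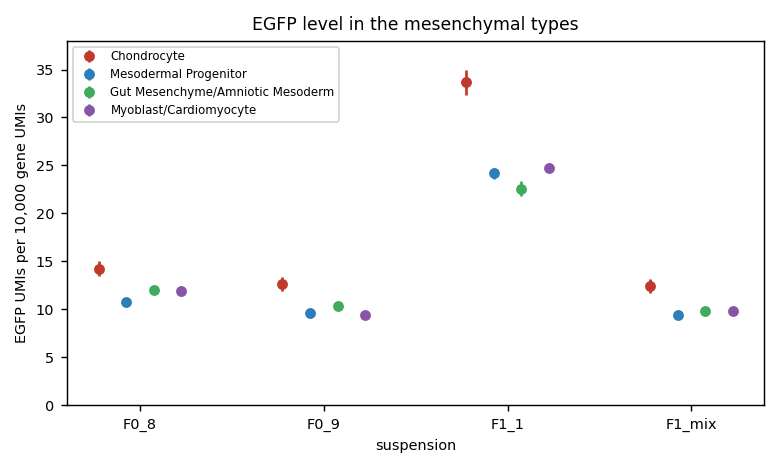
EGFP level (vertical axis, UMIs per 10000 gene UMIs, with exact Poisson 95% intervals) in the 4 mesenchymal types of each suspension. The Chondrocyte point is the highest in each suspension, from 12.4 in F1_mix to 33.7 in F1_1.

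Across the 12 types of ordinary depth, the genes whose level followed Sox9 most closely, among 1786 genes with a Chondrocyte level of 1 or more, were Gas1 (Pearson r = 0.98 of log2 levels over 12 types), Sfrp1 (0.97), Slc1a3 (0.97), Bmpr1b (0.97) and Pip4p2 (0.97). Gas1 is a hedgehog co-receptor, Sfrp1 a Wnt antagonist, Slc1a3 a glutamate transporter and Bmpr1b a BMP receptor. The types share 1 library and differ in depth, and the correlation is given as a description. In the Chondrocyte type itself Bmpr1b was at 1.04, below the 3.71 of Gut Mesenchyme/Amniotic Mesoderm and the 2.48 of Mesodermal Progenitor.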

How the data were processed

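The deposited UMI count matrices, 1 per suspension, were deposited by the authors, who mapped the reads to GRCm38 plus EGFP. The matrix headers name cellranger 7.2.0. For its cell table the study names SoupX, DoubletFinder, removal of cells at 5% mitochondrial transcripts or more, and Seurat with EGFP counts removed. By the deposited counts that limit did not match the table, since 287 of 296 Chondrocyte cells and, in F0_8, 1158 of 1599 annotated cells were under 5%. The counts used were the deposited ones, with no ambient correction and no further doublet call. Cell type and suspension came from the deposited cell table, of which 19 other columns were not used. The matrices held 6006 barcodes, none shared between suspensions.

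Members, gene lists and tests were chosen with earlier results of these data known. Counts of the 21937 genes were summed per suspension and type. Generations were compared with edgeR 4.0.16 (TMM, filterByExpr, quasi-likelihood F test, Benjamini-Hochberg adjustment; two-sided) in R 4.3.3, with DESeq2 1.42.0 as an alternative, and the R script was tested on simulated data. P-values measure the spread between 2 suspensions per generation. Named genes were all list members, the 15 higher and 10 lower genes with the widest margin over the suspension nearest to the other types at a level of 0.5 or more, the 10 smallest adjusted p in each direction, the 10 smallest of the difference test, and the 5 most like Sox9 on log2(level + 0.1). Lower genes of histones, replication and repair were named as well, after values had been seen. A Chondrocyte total was 781151 to 942058 gene UMIs per suspension. The lists of collagen processing, basement membrane, mural cell and Zic and Fox genes, the genes that split the cells and the fit without each gene's highest cell were added after values had been seen. Cells are not replicates and were never tested as such. Gene lengths were from RefSeq (GRCm38.p6), for 9046 of 9106 tested genes (99.3%). Python 3.11.15, numpy 2.4.6 and scipy 1.17.1 were used.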

Additional observations from a re-analysis of the deposited data

Results flagged for a closer look

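The founder minus F1 difference in the Chondrocyte type differed from that in the other mesenchymal types for 10 genes (adjusted p under 0.05 in edgeR's quasi-likelihood test of the difference itself). On the log2 scale the difference was 1.83 for Kcnd2, 1.58 for Galntl6, 0.87 for Kcnq5 and 0.77 for Crabp1, and -0.83 for Alcam, -0.93 for Ebf1, -0.95 for Anxa2, -1.32 for Col25a1, -1.34 for Ckb and -2.84 for Kcnip4. For Alcam and Anxa2 the Chondrocyte levels of the generations overlapped, and the contrast was in the other types, where Anxa2 was at 1.24, 1.14, 0.669 and 0.615 in F0_8, F0_9, F1_1 and F1_mix. Ebf1, a factor of mesenchymal and blood lineages, was at 5.91, 3.30, 3.88 and 3.26 in the Chondrocyte type and at 7.41, 5.2, 2.55 and 2.53 in the others. Crabp1, a retinoic acid binding protein, was at 4.51, 4.54, 5.67 and 3.47 and at 3.13, 3.25, 5.71 and 4.88. Without the highest cell of each gene in every suspension, Kcnd2, Alcam, Anxa2, Ebf1, Col25a1 and Ckb passed the threshold, while Galntl6 (1.21), Kcnq5 (0.77), Crabp1 (0.70) and Kcnip4 (-0.12) did not.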

How the results depend on the processing

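The Chondrocyte share kept its order over the suspensions with other denominators. It was 7.25%, 7.60%, 5.76% and 6.16% among cells under 5% mitochondrial UMIs, and 15.3%, 17.7%, 11.4% and 12.1% among the 4 mesenchymal types. With cells thinned to 2000 UMIs the detection shares were 28.7% for Sox9, 32.4% for Col2a1, 19.9% for Col9a1 and 27.7% for Sox5, and without thinning 56.4%, 59.1%, 54.1% and 58.1%. With 1.5 times in place of 2 times, 121 genes were higher and 81 lower than each other mesenchymal type. Leaving out 1 suspension gave 48 to 65 higher and 60 to 73 lower, since fewer suspensions had to meet the rule. With at least 200 UMIs 17 genes were lower.

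For founders against F1, DESeq2 called 35 genes, the cells under 5% mitochondrial UMIs gave 62, thinned cells 17, and the fit with no low-count filter 0 of 14955 (979 at an unadjusted p under 0.05). The cause of the last was not tested. Leaving out 1 suspension gave 57 (without F0_8) to 286 (without F1_mix). For the difference between the contrasts DESeq2 called 3, the fit with no filter 97, and leaving out 1 suspension 63 to 92, where 1 generation has a lone suspension assumed to vary like the others. Of the called genes named here, none changed direction in the fits that tested it. Calls were lost, however. Of the founder against F1 calls that were followed singly, 23 passed and 8 missed the threshold with DESeq2. With thinned cells 14 passed and 20 missed it, and with the cells under 5% mitochondrial UMIs 29 passed and 10 missed it. With no low-count filter all 39 missed it. The genes of the lists that were not called were not followed one by one. The mean log2 EGFP ratio stayed between 0.34 and 0.40 when 1 suspension was left out. Founders could not be paired with F1 suspensions, because no label matches them to each other. Only types were compared within a suspension, in the difference test and the EGFP test. The number of cells (56 to 88 per suspension) limits every value, including those of genes carried by few cells.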
